A study of Homo sapiens with 6 samples.

Results

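The tubulin genes were the 10 alpha- and beta-tubulin genes listed by symbol (TUBA1A, TUBA1B, TUBA1C, TUBB, TUBB2A, TUBB2B, TUBB3, TUBB4A, TUBB4B and TUBB6), taken from the 36601 genes of each count file. The rule used symbols and no measured value, but the symbols were chosen with earlier results of these data known. All 10 were found and all 10 passed the low-count filter of the test between treatments. They were measured in SK-N-BE(2)-C, a human neuroblastoma cell line that is a clonal subline of SK-N-BE(2), by Seq-Well S3, which captures the RNA of each cell on a barcoded bead and counts unique molecular identifiers (UMIs), tags that mark captured RNA molecules. The 6 libraries formed 3 groups of 2: cells given DMSO, the solvent control, cells given TSA, which usually stands for trichostatin A, a compound that blocks the catalytic site of histone deacetylases (HDACs), and cells given E6R. The title of the series speaks of inhibiting an HDAC complex without blocking its enzyme. What E6R is chemically, and for how long and at which dose either compound was given, is not given in the sources used here, nor is it said whether the libraries of a group came from separate cultures, so p-values measure only the spread between these libraries. All groups share the same line and carry no other labelled treatment, and a result in 1 clonal line need not extend to others.

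Alpha- and beta-tubulin join into the dimers from which microtubules are built. Mammals make each from several genes: TUBA1B, TUBA1C, TUBB, TUBB4B and TUBB6 are active in most dividing cells, while TUBA1A, TUBB2A, TUBB2B, TUBB3 and TUBB4A are enriched in neurons, and TUBB3 is a common marker of neuronal identity, including in neuroblastoma. Microtubules form the mitotic spindle and the core of the axon, and cells adjust their tubulin mRNAs to the amount of free tubulin through a pathway that uses TTC5. HDAC6 and SIRT2, enzymes that remove acetyl groups from alpha-tubulin, link deacetylases to microtubules, and TSA inhibits HDAC6 along with nuclear HDACs.

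Cells were barcodes with at least 500 genes and at most 20% of UMIs from mitochondrial genes, 17589 in all and 1861 to 3946 in a library, with summed depths of 4206366 to 26180262 UMIs; the DMSO libraries were the shallowest. The share of mitochondrial UMIs was 5.83% and 6.20% under DMSO, 6.08% and 9.71% under TSA and 1.55% and 1.51% under E6R. Library pairs shared 11 to 58 cell barcodes, at most 2.11% of the smaller library. All 9 adrenergic neuroblastoma markers were detected in every group, summing to 2647 to 5254 CPM (UMI counts scaled to an equal library total) in a library. The 6 blood and immune markers summed to at most 4.38 CPM, with LYZ and HBA1 at 0 under DMSO, CD3E at 0 under TSA, and CD3E and HBA1 at 0 under E6R. The 5 epithelial markers summed to 14.0 to 71.3 CPM, with KRT5 at 0 under E6R. The 7 mesenchymal markers summed to 835 to 1328 CPM under DMSO, 1869 to 3009 under TSA and 1357 to 2065 under E6R. Of the 6 tested, VIM, an intermediate filament gene, was the 1 that passed under TSA (log2 difference 1.46, SE 0.31, adjusted p = 0.011), while CD44 had -1.56 (adjusted p = 0.077) and TWIST1 -0.34 (adjusted p = 0.38). The part of these markers in the tubulin results was not tested. The deposited data of TSA replicate 2 carry a name of another form than those of the other 5 libraries, which the labels do not explain; whether it was prepared in another way, and the part of that, was not tested.

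The genes lie on 6 chromosomes (GRCh38, GENCODE 29). On chromosome 12, TUBA1B (49127782 to 49131397, minus strand), TUBA1A (49184796 to 49189324, minus strand) and TUBA1C (49188736 to 49274603, plus strand) form a cluster in which TUBA1A and TUBA1C overlap on opposite strands. On chromosome 6, TUBB2A (3153669 to 3157526) and TUBB2B (3224261 to 3231730) lie on the minus strand, 70592 bases apart by their starts, and TUBB (30720201 to 30725426, plus strand) lies far from both. TUBB3 is at 89921392 to 89938761 on chromosome 16 (plus strand), TUBB4A at 6494319 to 6502848 on chromosome 19 (minus strand), TUBB4B at 137241213 to 137243707 on chromosome 9 (plus strand) and TUBB6 at 12307669 to 12344320 on chromosome 18 (plus strand). All 10 are protein coding, and the counts are of whole genes, with exons and introns not separated.

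Because tubulin genes resemble each other, the last 400 bases of a principal transcript of each were compared with all other genes in stretches of 50 bases. TUBA1C, TUBB, TUBB2B, TUBB4A and TUBB6 shared none, so a read of that length from these ends names 1 gene. TUBA1A shared 13.7% with TUBA1B, TUBA1C or a pseudogene and TUBA1B 35.6%; TUBB2A shared 43.6% and TUBB4B 29.3% with other beta-tubulin genes. TUBB3 shared 98.6% with AC092143.1, an annotated transcript unit running through it, for which the count files carry no row. The strand rule of the counting is not given in the sources used here, so antisense neighbours are uncertain too: FAM166A, which overlaps TUBB4B on the other strand, had 10 and 101 UMIs under DMSO, 315 and 414 under TSA and 15 and 195 under E6R, against 4235 and 7656, 32150 and 32955, and 12265 and 31410 for TUBB4B.

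The sequences before the starts of the 5 genes that changed under TSA are shown because those genes changed in opposite directions. They are RefSeq promoter stretches (GRCh38.p14), given 5′ to 3′ on the gene's strand with bases of annotated exons left out. The RefSeq start of TUBB2B lies 4077 bases from its annotated gene start, so its stretch falls inside the annotated gene. Capitals mark matches on either strand. The letters matched are the CCAAT box (CCAAT), the GC box (GGGCGG), the TATA box (TATAAA) and the core of the cyclic AMP response element (TGACG).
TUBB4A, higher under TSA, chr19:6502849-6503098 (minus strand): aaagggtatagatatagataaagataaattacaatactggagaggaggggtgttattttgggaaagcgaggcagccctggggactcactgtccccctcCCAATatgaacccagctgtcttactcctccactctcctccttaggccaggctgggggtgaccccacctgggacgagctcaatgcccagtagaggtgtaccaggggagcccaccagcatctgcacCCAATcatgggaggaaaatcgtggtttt
TUBB2B, higher under TSA, chr6:3227736-3227903 (minus strand): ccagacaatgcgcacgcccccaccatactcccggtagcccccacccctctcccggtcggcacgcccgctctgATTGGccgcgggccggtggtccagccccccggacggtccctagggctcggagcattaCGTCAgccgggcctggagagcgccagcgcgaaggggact
TUBB4B, higher under TSA, chr9:137241037-137241212 (plus strand): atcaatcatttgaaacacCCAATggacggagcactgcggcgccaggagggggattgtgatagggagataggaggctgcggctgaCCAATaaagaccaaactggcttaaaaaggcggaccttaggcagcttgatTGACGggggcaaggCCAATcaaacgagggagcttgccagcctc
TUBA1B, lower under TSA, chr12:49131398-49131645 (minus strand): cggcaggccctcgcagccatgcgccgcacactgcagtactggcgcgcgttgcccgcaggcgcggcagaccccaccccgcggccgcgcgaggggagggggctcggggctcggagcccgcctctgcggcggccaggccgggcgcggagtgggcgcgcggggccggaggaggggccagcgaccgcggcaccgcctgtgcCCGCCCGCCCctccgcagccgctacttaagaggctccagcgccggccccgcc
TUBB6, lower under TSA, chr18:12307419-12307668 (plus strand): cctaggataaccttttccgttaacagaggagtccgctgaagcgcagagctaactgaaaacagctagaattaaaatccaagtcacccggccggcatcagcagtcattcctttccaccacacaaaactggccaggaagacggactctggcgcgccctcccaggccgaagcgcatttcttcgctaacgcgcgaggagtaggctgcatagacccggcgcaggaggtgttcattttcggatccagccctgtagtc
TUBB4B had 3 CCAAT boxes within 250 bases of its start, TUBB4A 2 and TUBB2B 1, and TUBA1B and TUBB6 had none there. At a second RefSeq start TUBB6 had 1 and TUBB4A had 0. TUBA1A, TUBA1C and TUBB, which did not pass the test, held 2, 1 and 1 at the start nearest their annotated gene start. The CCAAT letters occurred in 32.0% of 35116 RefSeq promoters, the GC box in 42.6%, the TATA box in 10.7% and the cyclic AMP core in 21.2%. TUBA1B had 3 GC boxes, partly overlapping, counted with the 2 exon bases that are left out of the stretch above. TUBB2A was the member with a TATA box at the start nearest its annotated gene start. These letters are a description and locate no bound factor.

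Under DMSO the members fell into 3 tiers of level. Values in CPM were scaled with TMM, edgeR's library-size factors, and because a UMI marks 1 captured molecule they were not divided by gene length. TUBB (1218 ± 215 CPM, SD, n = 2), TUBA1A (1191 ± 152), TUBB4B (1182 ± 399), TUBB3 (1134 ± 337) and TUBA1B (1060 ± 91.5) formed the top tier. These 5 did not differ beyond their spread. TUBB2A (193 ± 87.4), TUBB6 (142 ± 6.50) and TUBB2B (67.4 ± 31.3) came next, with TUBB2A and TUBB6 within their spread. TUBA1C (4.59 ± 1.08) and TUBB4A (2.56 ± 1.52) were near the bottom and also within their spread. Together the 10 genes held 0.661% and 0.707% of the UMIs under DMSO, 0.634% and 0.564% under TSA and 0.655% and 0.756% under E6R, and between 97.9% and 99.4% of the cells of a library had at least 1 tubulin UMI.

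**Figure D1:**
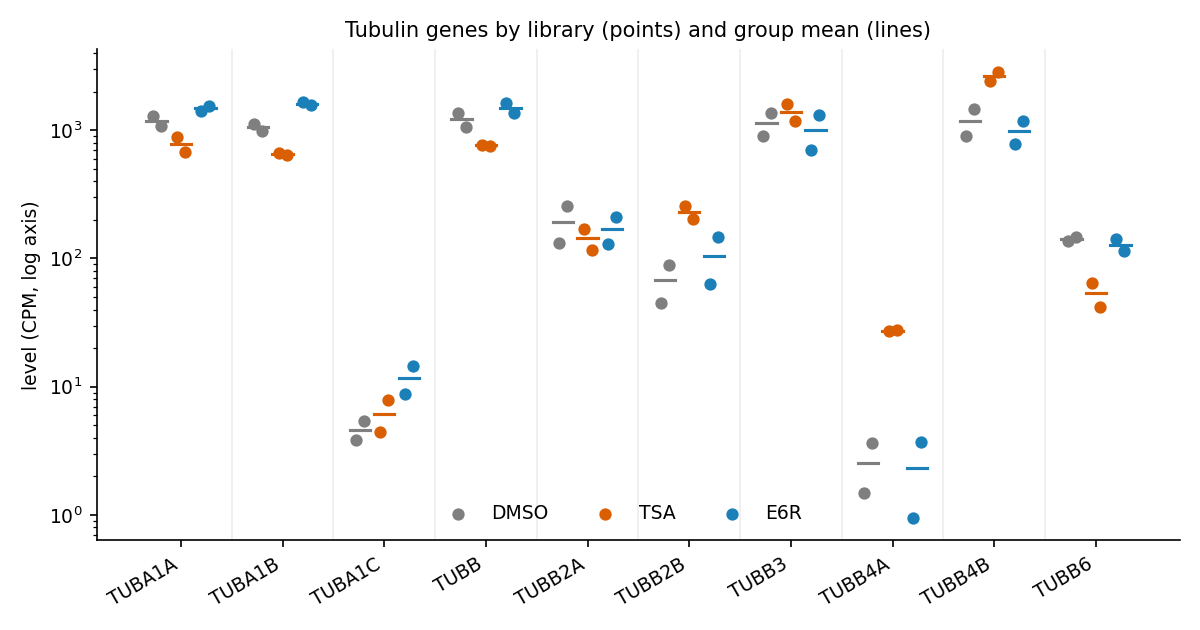
Level of each tubulin gene in CPM on a log axis; points are the 6 libraries (2 per treatment) and short lines the group means. TUBB4A stood at 27.0 and 27.9 CPM under TSA against at most 3.69 CPM in the other 4 libraries, and TUBB4B stood at 2442 and 2869 CPM under TSA.

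TSA against DMSO asked how tubulin mRNAs differed between cells given TSA and cells given the solvent. These counts do not measure deacetylase activity. TUBB4A, TUBB2B and TUBB4B rose, TUBB6 and TUBA1B fell, and 5 members did not pass the test (adjusted p under 0.05). That is 5 of 10 where 29.7% of the 16763 genes tested passed; 3 members rose where 16.2% of genes did, and 2 fell where 13.5% did. The members' median log2 fold change was -0.06, beside -0.01 over all genes tested.

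Among the beta-tubulins enriched in neurons, TUBB4A, a gene best known from oligodendrocytes and neurons, stood at 1.49 and 3.63 CPM under DMSO, 27.0 and 27.9 under TSA and 0.948 and 3.69 under E6R. Both TSA libraries were far above all others. TUBB4A rose by 3.40 (SE 0.66, adjusted p = 0.0084) in log2 units, and the ratio of means was 10.7. The DMSO level rested on 7 and 19 UMIs.

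TUBB2B, a beta-tubulin needed for migration of cortical neurons, stood at 45.3 and 89.5 CPM under DMSO, 258 and 204 under TSA and 63.5 and 147 under E6R. The TSA libraries were the highest and overlapped neither other group, while E6R and DMSO overlapped. TUBB2B rose by 1.78 under TSA (SE 0.44, adjusted p = 0.021); the call was lost without DMSO replicate 1 (adjusted p = 0.098), TSA replicate 1 (0.10) or TSA replicate 2 (0.070).

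TUBB3 and TUBB2A, the other neuron-enriched beta-tubulins, did not follow. TUBB3 stood at 896 and 1373 CPM under DMSO, 1593 and 1189 under TSA and 698 and 1309 under E6R. All 3 groups overlapped, and the log2 difference for TSA was 0.29 (SE 0.35, adjusted p = 0.55). TUBB2A stood at 131 and 255, 171 and 117, and 130 and 209 CPM in the same order, again with overlap throughout and a log2 difference of -0.42 (SE 0.37, adjusted p = 0.41).

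Among the beta-tubulins of most dividing cells, TUBB4B, which is abundant in cilia and in cultured cells, stood at 900 and 1464 CPM under DMSO, 2442 and 2869 under TSA and 775 and 1182 under E6R. The TSA libraries stood above the other 4. TUBB4B rose by 1.17 (SE 0.31, adjusted p = 0.026) in log2 units. With total counts in place of TMM the value was 0.86 (adjusted p = 0.064), and in the lower part of cells by mitotic UMIs 0.99 (adjusted p = 0.13). The call was also lost without DMSO replicate 1 (adjusted p = 0.11), TSA replicate 1 (0.076) or TSA replicate 2 (0.13).

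TUBB6, a more divergent beta-tubulin, stood at 138 and 147 CPM under DMSO, 64.7 and 42.0 under TSA and 142 and 114 under E6R. The TSA libraries were the lowest, and E6R overlapped DMSO. TUBB6 fell by 1.42 (SE 0.25, adjusted p = 0.0060). TUBB, the main beta-tubulin of proliferating cells, stood at 1370 and 1066 CPM under DMSO, 772 and 759 under TSA and 1645 and 1359 under E6R; the TSA libraries were again lowest, with a log2 difference of -0.67 that missed the threshold (SE 0.22, adjusted p = 0.053) and passed it in 9 of 20 alternative analyses.

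The alpha-tubulins had their lowest levels under TSA, except TUBA1C. TUBA1B, the main alpha-tubulin of dividing cells, stood at 1125 and 995 CPM under DMSO, 666 and 642 under TSA and 1652 and 1562 under E6R. The 3 groups did not overlap. TUBA1B fell by 0.70 under TSA (SE 0.19, adjusted p = 0.031), and the call was lost in 6 of 20 alternatives, among them each of the 4 that left out a DMSO or TSA library (adjusted p from 0.052 to 0.19).

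TUBA1A, the alpha-tubulin of young neurons, stood at 1298 and 1083 CPM under DMSO, 883 and 681 under TSA and 1412 and 1550 under E6R. The 3 groups did not overlap here either, and the log2 difference for TSA was -0.61 (SE 0.22, adjusted p = 0.074). TUBA1C, a minor alpha-tubulin in these cells, stood at 3.82 and 5.36, 4.41 and 7.84, and 8.85 and 14.4 CPM, with overlap between TSA and DMSO. With total counts only, which moved the median of all genes to -0.32, the values were -0.91 for TUBA1A and -0.98 for TUBB, and both passed the test (adjusted p = 0.025 and 0.016).

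TUBB4A was called in 18 of 19 alternatives and TUBB6 in 19 of 20, and without TSA replicate 2 their values were 3.42 (adjusted p = 0.053) and -1.10 (adjusted p = 0.061). Leaving out the first DMSO library left 2 members called and leaving out the second left 4. Leaving out the first TSA library left 2 and leaving out the second left 0. At an unadjusted p under 0.05, edgeR had 7 of 10 members where 42.6% of genes passed. The libraries of the TSA and DMSO groups did not overlap for 7 of 10 members, as for 71.3% of all genes, so a lack of overlap sets no member apart. Whichever DMSO or TSA library was left out, 1 library remained in its group and fewer of all genes passed as well. The second TSA library is the one whose data carry a name of another form, and the part of that was not tested.

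**Figure D2:**
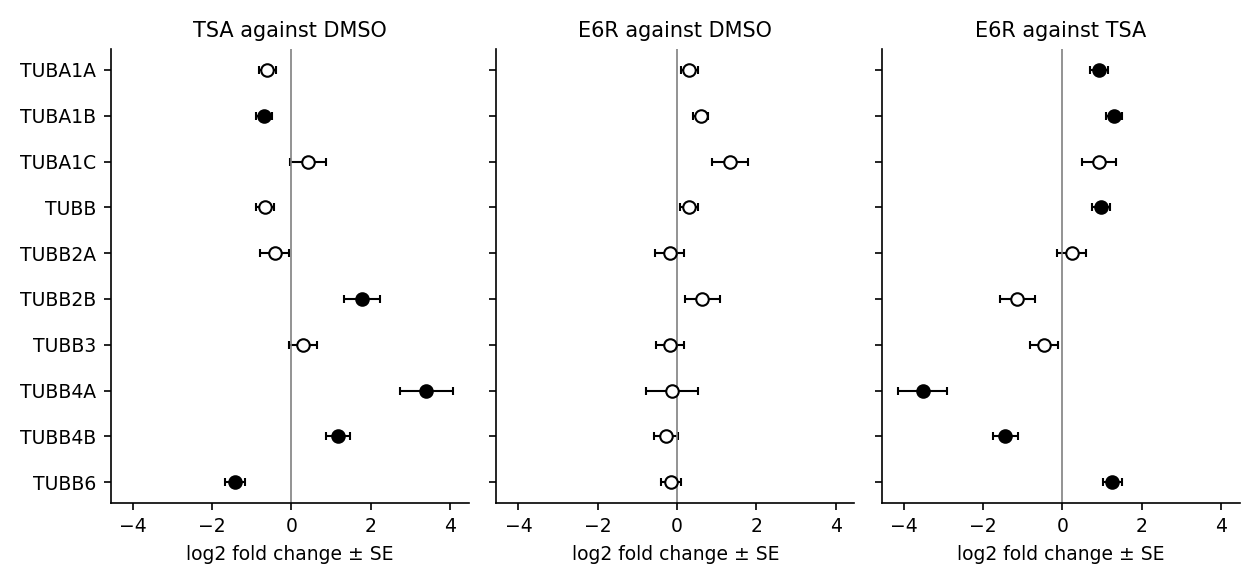
Log2 fold change of each tubulin gene in the 3 comparisons, with its standard error from edgeR (2 libraries per group); filled points have an adjusted p under 0.05. TSA against DMSO has 3 filled points to the right and 2 to the left, E6R against DMSO has none, and E6R against TSA has 4 to the right and 2 to the left.

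The same question was put to E6R. In edgeR 0 of 10 members passed the test, as did 0% of all genes. At an unadjusted p under 0.05 there were 2 of 10 members where 17.4% of genes passed: TUBA1B with a log2 difference of 0.60 (SE 0.19, unadjusted p = 0.015, adjusted p = 0.22) and TUBA1C with 1.34 (SE 0.45, unadjusted p = 0.018, adjusted p = 0.22). DESeq2 called 1 of 10 members, TUBA1B (adjusted p = 0.046), and 2.15% of all genes. Without the low-count filter edgeR called 2 of 10, TUBA1C (adjusted p = 0.039) and TUBB2B (0.044), and 3.47% of all genes. E6R and DMSO libraries did not overlap for TUBA1A, TUBA1B and TUBA1C, all 3 higher under E6R; the other 7 overlapped, and over all genes 47.3% did not overlap. The log2 differences of the 10 members ran from -0.27 for TUBB4B to 1.34, with a median of 0.09 beside 0.03 over all genes. With mitochondrial and ribosomal protein genes taken out of the fit, 0 members were called as well.

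Set directly against TSA, E6R had higher TUBA1B, TUBB6, TUBB and TUBA1A and lower TUBB4A and TUBB4B. These were 6 of 10 members where 38.2% of genes passed, 4 higher where 18.7% did and 2 lower where 19.5% did. The 4 higher values were 1.30 for TUBA1B (SE 0.20, adjusted p = 0.0022), 1.26 for TUBB6 (SE 0.25, adjusted p = 0.0061), 0.97 for TUBB (SE 0.22, adjusted p = 0.011) and 0.92 for TUBA1A (SE 0.22, adjusted p = 0.014). TUBB4A had -3.52 (SE 0.62, adjusted p = 0.0039) and TUBB4B -1.44 (SE 0.31, adjusted p = 0.0089). TUBB2B had -1.13 (SE 0.43, adjusted p = 0.071). The groups did not overlap for 8 of 10 members, all but TUBB2A and TUBB3, beside 72.6% of all genes. Without TSA replicate 2 the count of calls was 2, TUBA1B and TUBB4A; TUBB also missed the threshold without TSA replicate 1 (adjusted p = 0.073), and TUBB6 in the lower part of cells by mitotic UMIs (0.81, adjusted p = 0.073). The comparisons with DMSO and with TSA share libraries, so their values are given side by side and are not independent of each other.

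Read as a pool, tubulin RNA in both TSA libraries held less alpha and more TUBB4B than in any of the other 4. The alpha genes made up 41.1% and 32.1% of tubulin UMIs under DMSO, 22.6% and 20.4% under TSA and 47.1% and 42.0% under E6R. The 3 groups did not overlap, with means of 36.6% ± 6.31, 21.5% ± 1.57 and 44.5% ± 3.62 (SD, n = 2). Exact two-sided permutation tests of both treatments against DMSO gave p = 0.333, the smallest that 2 libraries against 2 allow (0.667 after Benjamini-Hochberg adjustment over 26 such share tests), so no share could pass a threshold.

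Within the beta genes, TUBB4B had a share of 25.8% and 33.3% under DMSO, 45.8% and 55.1% under TSA and 22.4% and 27.3% under E6R. TUBB had 39.4% and 24.2%, 14.5% and 14.6%, and 47.6% and 31.4%. TUBB4B was thus the larger of the pair in both TSA libraries and in DMSO replicate 2, and TUBB in the other 3. TUBB2B had a mean share of 1.67% ± 0.52 under DMSO and 4.38% ± 0.65 under TSA, TUBB4A 0.063% ± 0.028 and 0.52% ± 0.020, and TUBB6 3.65% ± 0.44 and 1.01% ± 0.29.

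The share of the 4 neuron-enriched genes in beta-tubulin UMIs did not separate the treatments. It was 30.8% and 39.1% under DMSO, 38.5% and 29.5% under TSA and 25.8% and 38.6% under E6R. All groups overlapped, and the differences from DMSO were -0.99 percentage points for TSA and -2.76 for E6R (exact permutation p = 0.667 for both). TUBB3 made up most of this share in every library. TUBA1A held 53.5% and 52.0% of alpha-tubulin UMIs under DMSO, 56.8% and 51.2% under TSA and 46.0% and 49.6% under E6R; the exact permutation p was 1 for TSA and 0.333 for E6R, where the libraries did not overlap DMSO.

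**Figure D3:**
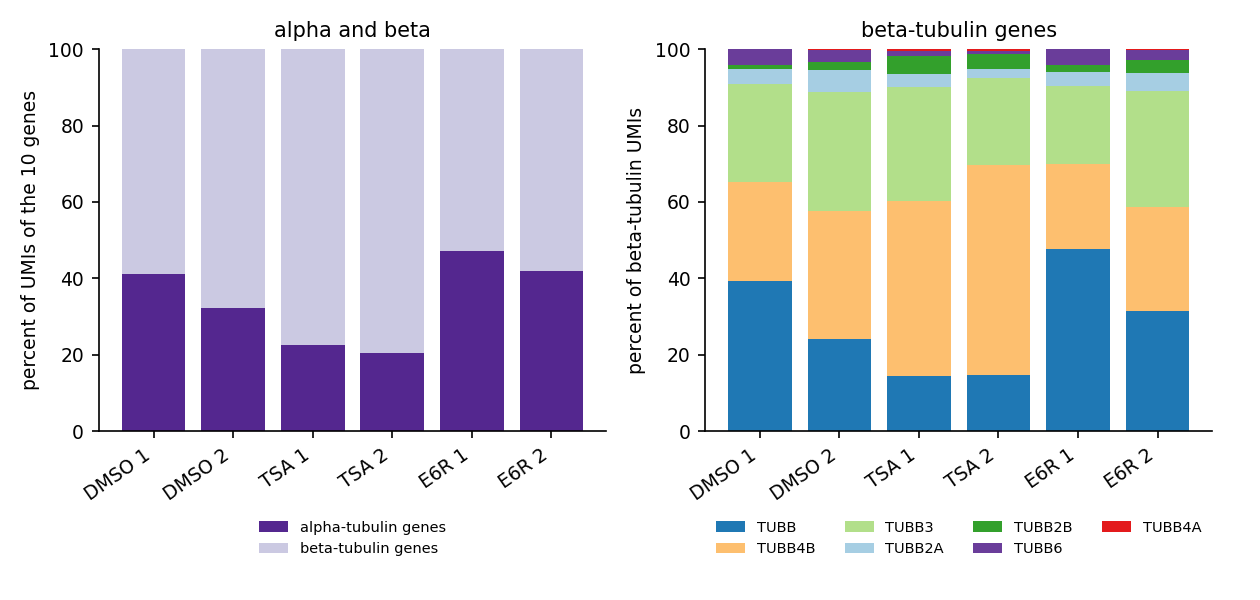
Left, share of alpha- and beta-tubulin genes in the UMIs of the 10 genes, in percent, per library; right, share of each beta-tubulin gene in beta-tubulin UMIs. Alpha genes hold 20.4% to 22.6% in the TSA libraries and 32.1% to 47.1% in the others, and TUBB4B takes 45.8% and 55.1% of beta-tubulin UMIs under TSA.

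In single cells, thinned to equal depth, the TSA libraries stood below the others for TUBA1A, TUBA1B, TUBB and TUBB6. They stood above the others for TUBB2B and TUBB4A, but overlapped them for TUBB4B. The share of all genes with such a separation was not computed, so it sets no member apart. Each cell was thinned to 1000 UMIs, which left out 5652 shallower cells (674 and 1450 DMSO, 615 and 503 TSA, and 692 and 1718 E6R cells). A TUBA1B UMI was then seen in 62.1% and 63.9% of DMSO cells, 36.1% and 39.4% of TSA cells and 72.2% and 65.3% of E6R cells. TUBB was seen in 72.0% and 67.7%, 42.5% and 45.5%, and 74.5% and 64.6%. The TSA libraries stood apart from the other 4 for both, while without thinning, in deeper TSA cells, TUBB was seen in 76.7% and 72.8% of DMSO, 64.5% and 67.9% of TSA and 85.5% and 74.3% of E6R cells.

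TUBB4B was seen in 59.5% and 74.9% of thinned DMSO cells and 74.3% and 86.1% of TSA cells, which overlap. TUBB6 was seen in 12.5% and 14.1% of DMSO, 6.43% and 3.44% of TSA and 12.6% and 9.96% of E6R cells. TUBB2B was seen in 4.72% and 8.56% of DMSO, 17.9% and 13.4% of TSA and 5.50% and 10.3% of E6R cells. TUBB4A was seen in 0.168% and 0.357% of DMSO cells, 3.29% and 2.40% of TSA cells and 0.091% and 0.359% of E6R cells; unthinned, these were 7 of 1861 and 19 of 3132 DMSO cells, 273 of 2467 and 240 of 3292 TSA cells, and 14 of 2891 and 74 of 3946 E6R cells. The UMIs behind the higher summed count of TUBB4A thus came from a minority of cells, and at this depth a cell without a UMI may still express the gene. A thinned cell held 4 different members at the median under DMSO and E6R and 3 under TSA, and at most 8.

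No second cell type was present in which tubulin UMIs could serve as background, so barcodes with fewer than 300 genes were examined. In them TUBB4A stood at 3.13 and 6.55 CPM (without TMM scaling) under DMSO, 22.5 and 16.2 under TSA and 1.19 and 6.69 under E6R, and the alpha share at 22.8% and 19.8% under TSA and 45.7% and 37.8% under E6R. On the same scale the cells had TUBB4A at 1.66 and 3.96, 24.9 and 24.03, and 0.951 and 3.74 CPM. TUBB4A UMIs were thus present in the small barcodes of every library, and shares of cells with a UMI include any free RNA. Under TSA the small barcodes stood below the cells. Under DMSO and E6R they stood above them, but on few UMIs, so that this excess may be counting error.

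**Figure D4:**
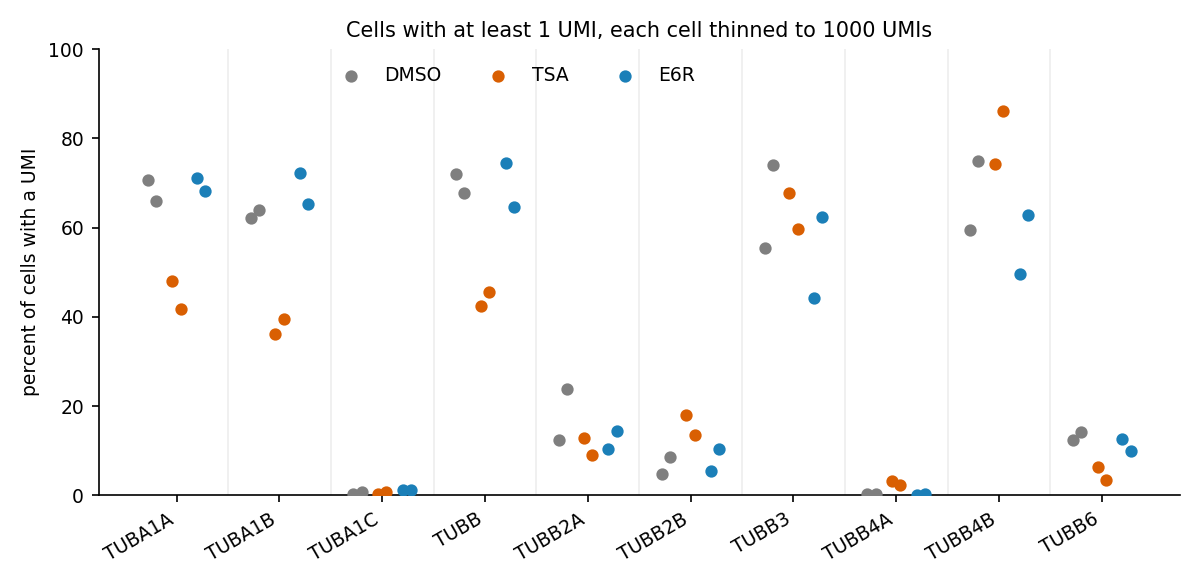
Percent of cells with at least 1 UMI of each tubulin gene after each cell was thinned to 1000 UMIs; points are libraries, 2 per treatment. TUBA1A, TUBA1B and TUBB lie between 36.1% and 48.0% in TSA cells and between 62.1% and 74.5% in DMSO and E6R cells.

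Tubulin genes were also compared between cells with many and with few UMIs of mitotic genes in the same library, since the spindle is built from tubulin. Cells thinned to 1000 UMIs were ranked by the UMIs of 50 mitotic genes, none of them a tubulin, and the 25% with most were set against the 25% with fewest, with library as a paired term. TUBB4B, TUBA1B and TUBB were higher in mitotic-high cells, and 5 members did not pass the test; TUBA1C and TUBB4A had too few counts to be tested. That is 3 of 8 where 8.99% of 7445 genes passed, 5.28% higher and 3.71% lower.

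TUBB4B was higher by 0.87 in log2 units (SE 0.12, adjusted p = 1.4e-06), with log2 ratios of 1.29 and 0.26 in the DMSO libraries, 1.58 and 0.45 under TSA and 1.13 and 0.60 under E6R. TUBA1B was higher by 0.63 (SE 0.098, adjusted p = 2.0e-05), with ratios from 0.35 to 1.37, and TUBB by 0.58 (SE 0.088, adjusted p = 1.3e-05), with ratios from 0.33 to 1.03. All 3 were higher in 6 of 6 libraries and passed the test in all 11 alternatives. For each of them the ratio was smaller in replicate 2 than in replicate 1 of every treatment. TUBA1A (-0.01, SE 0.091), TUBB2A (0.05, SE 0.13), TUBB2B (0.00, SE 0.13), TUBB3 (-0.12, SE 0.087) and TUBB6 (-0.02, SE 0.15) had values near 0 with either sign among libraries.

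Whether this mitotic difference itself differed between treatments was tested with an interaction term, chosen after the ratios were seen. For TSA minus DMSO, edgeR called 0 of 8 members, as it did 0% of genes, and at an unadjusted p under 0.05 it had 0 of 8 members where 4.18% of genes passed. For E6R minus DMSO it called 0 of 8 (0% of genes), with 0 of 8 at an unadjusted p under 0.05 where 2.87% of genes passed. For E6R minus TSA it called 0 of 8 (0.0134% of genes), and 2 of 8 had an unadjusted p under 0.05 where 4.74% of genes did: TUBB2B (-0.91, SE 0.30, adjusted p = 0.98) and TUBB6 (0.96, SE 0.35, adjusted p = 0.98). TUBB4B and TUBA1B moved in opposite directions under TSA, and both were higher in mitotic-high cells. These are separate comparisons, and the part of either in the other was not tested. Of the 50 mitotic genes, 13 rose and 7 fell under TSA, beside 16.2% and 13.5% of all genes. Their log2 fold changes ran from -1.38 for ANP32E to 1.75 for CDCA2, with 1.42 for TACC3.

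**Figure D5:**
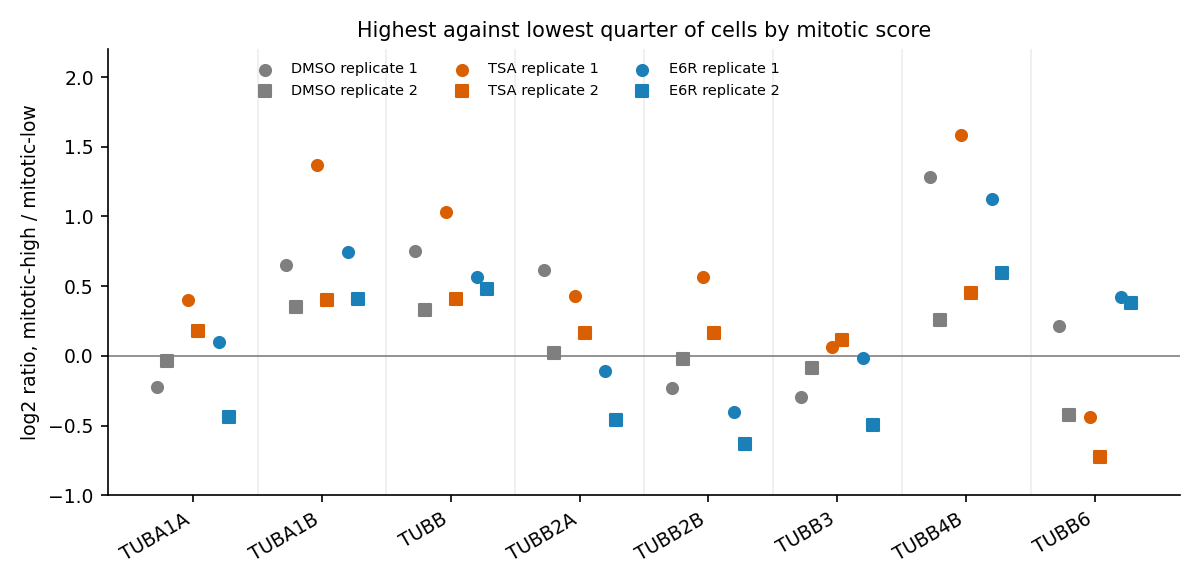
Log2 ratio of CPM in the 25% of cells with most mitotic UMIs over the 25% with fewest, per library; circles are replicate 1 and squares replicate 2 of each treatment. TUBA1B, TUBB and TUBB4B lie above 0 in all 6 libraries, and the other 5 genes lie on both sides of 0.

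Other genes of tubulin biology were read from 8 fixed lists with 96 gene entries tested (TBCE carries 2 gene identifiers). Under TSA, 20 rose and 7 fell, 27 of 96 beside 29.7% of all genes, with a median of 0.13. Under E6R against DMSO 0 passed in edgeR, and 16 had an unadjusted p under 0.05, beside 17.4% of all genes. Between E6R and TSA, 21 were higher and 16 lower under E6R, 37 of 96 beside 38.2%.

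Of 6 other tubulins tested (TUBA4A, TUBB1, TUBG1, TUBG2, TUBD1 and TUBE1), 1 rose under TSA: TUBA4A, an alpha-tubulin abundant in brain and platelets, stood at 3.82 and 12.4 CPM under DMSO, 76.2 and 66.3 under TSA and 4.17 and 11.3 under E6R. The TSA libraries were far above the rest, a rise of 3.12 in log2 units (SE 0.59, adjusted p = 0.0078). Of 8 entries for cofactors that fold and join tubulin, 2 rose, TBCD by 0.72 and, below a mean of 20 CPM, TBCEL. Of 14 subunits of the CCT chaperonin and prefoldin, which fold new tubulin, CCT2 rose by 0.75 and VBP1 fell by 1.18. Between E6R and TSA 5 were higher under E6R (CCT4, CCT5, CCT6A, PFDN4 and VBP1). For E6R against DMSO edgeR called 0 of the 14, and 8 had an unadjusted p under 0.05, beside 17.4% of all genes. Those 14 log2 differences ran from 0.03 to 0.79, with a median of 0.51, and were singled out after they were seen. For TSA against DMSO, TBCD was called in 8 of 20 alternatives and CCT2 in 11. None of 3 genes of tubulin mRNA autoregulation passed, TTC5 having a log2 difference of 0.32 (adjusted p = 0.32); at an unadjusted p under 0.05 edgeR also had 0 of 3.

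Of 19 enzymes that modify tubulin, 6 rose and 2 fell under TSA. HDAC6 stood at 28.7 and 21.6 CPM under DMSO, 50.6 and 51.0 under TSA and 21.3 and 24.3 under E6R. It rose by 1.02 (SE 0.23, adjusted p = 0.015), a call that held in 14 of 20 alternatives. TTLL1, a polyglutamylase subunit, rose by 1.30, and SIRT2, TTLL5, AGTPBP1 and AGBL5 rose as well. VASH1, which removes the last tyrosine of alpha-tubulin, fell by 1.92, and TTL, which puts it back, fell by 0.69.

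Of 15 genes listed as neuronal microtubule-associated proteins, 3 rose and 1 fell under TSA. Whether each listed gene is particular to neurons was not tested. MAP1B, an axonal protein, stood at 2052 and 1771 CPM under DMSO, 650 and 648 under TSA and 1738 and 1355 under E6R. It fell by 1.56 (SE 0.22, adjusted p = 0.0027). The 3 that rose, TPPP by 3.86, CAMSAP3 by 2.24 and TPPP3 by 1.64, were below a mean of 20 CPM and are named after their values were seen. Of 21 genes listed as general regulators, 5 rose (among them MAPRE3 by 1.82) and 2 fell (CLIP1 by 1.94, with FIGN). STMN1, which binds free tubulin dimers, had a log2 difference of -0.03 (adjusted p = 0.94). Of 10 genes of the gamma-tubulin ring complex, which starts microtubules, TUBGCP6 rose by 2.66, TUBGCP2 rose by 0.94 and MZT2B fell by 0.71.

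Across the 6 libraries, genes most like TUBB4A among 7498 with a mean of at least 20 CPM included TMEM198 and SYN1 (Pearson r of log2 CPM 0.998 for each), and those most like TUBB6 were VPS26B (0.995), AKAP9 (0.994) and PSMD7 (0.988). The 6 points form 3 treatment groups of 2 libraries and are not independent, so the values are a description.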

How the data were processed

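Expression was measured in 6 Seq-Well S3 libraries of SK-N-BE(2)-C cells. The authors' deposited files held whole-number UMI counts per gene and barcode, not normalized; STARsolo 2.7.9a and the build GRCh38 are named in the submitters' processing notes, while the annotation, the strand rule and the rule for choosing barcodes are not given in the sources used here. Both members and gene lists were chosen with earlier results of these data known.

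Barcodes with at least 500 genes and at most 20% mitochondrial UMIs were kept. Counts were summed per library and tested with edgeR 4.0.16 in R 4.3.3 (quasi-likelihood test, TMM, filterByExpr, group as the only term, all 6 libraries in 1 fit, Benjamini-Hochberg adjustment over all genes, threshold 0.05), after checks on simulated data. Adjusted p-values come from this test unless DESeq2 (1.42.0, an alternative) is named. Shares of tubulin UMIs were compared with exact two-sided permutation tests (SciPy 1.17.1). Mitotic-high and mitotic-low cells were compared over libraries with library as a term. Doublets were not called; as an alternative, the 5% of cells deepest in UMIs were removed. The common biological coefficient of variation between libraries was 0.288; counting error was small beside it for the abundant members, and not for TUBA1C and TUBB4A under DMSO.

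All 10 members were named, and from each other list at most 2 called genes of largest change with a mean of 20 CPM or more, plus HDAC6, TTC5 and STMN1; further called genes were named after their values were seen. Positions are from GENCODE 29 and promoters from RefSeq; all 10 members matched both. Some genes that these rules select are not reported here.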

Additional observations from a re-analysis of the deposited data

How the results depend on the processing

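Each treatment comparison was repeated under 20 alternatives, and the mitotic comparison under 11. TUBA1B, TUBB2B, TUBB4A, TUBB4B and TUBB6 kept the direction of their TSA change in every alternative that tested them; TUBB4A could not be tested at a mean of 20 CPM or more. Leaving out 1 library gave 0 to 5 members called for TSA against DMSO (0 without TSA replicate 2) and 2 to 7 for E6R against TSA. With the replicate block, 7 members were called for TSA against DMSO (TUBA1A and TUBB added), beside 36.1% of all genes, 0 for E6R against DMSO, beside 0.113%, and 8 for E6R against TSA (TUBA1C and TUBB2B added), beside 45.1%. Same-numbered libraries deviated together (r = 0.242 for DMSO with TSA, 0.564 for DMSO with E6R and 0.166 for TSA with E6R, over 7515 genes), but no label ties the numbers, and 2 numbers are too few to establish a pairing. For E6R against DMSO, DESeq2 called 1 member (2.15% of all genes) and edgeR without the low-count filter 2 (3.47%).

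Of the values the report prints, some that had not passed the test in the main analysis changed sign. For TSA against DMSO these were TUBB3 with total counts only (-0.0068), STMN1 in all deposited barcodes (0.12), and, with 1 library left out, TUBA1C (-0.022 to 0.80), TUBB2A (-0.78 to 0.063) and STMN1 (-0.39 to 0.35). Among the members they were, for E6R against DMSO, TUBB4A (0.042) and TUBB6 (0.013) without the filter, TUBB6 in all barcodes (0.046), and, with 1 library left out, TUBB2A (-0.53 to 0.41), TUBB2B (-0.047 to 1.25), TUBB3 (-0.66 to 0.32), TUBB4A (-1.40 to 0.71), TUBB4B (-0.57 to 0.16) and TUBB6 (-0.21 to 0.033). For E6R against TSA it was TUBB2A, in thinned cells (-0.010) and with 1 library left out (-0.13 to 0.61). In the mitotic comparison TUBA1A was 0.0049 with wider classes of cells and 0.019 without the filter, TUBB2A -0.11, TUBB2B 0.056 and TUBB6 0.012 at 500 UMIs per cell, and TUBB2B 0.024 and TUBB6 0.013 without the filter; leave-one-out ranges were -0.088 to 0.076 for TUBA1A, -0.020 to 0.18 for TUBB2A, -0.19 to 0.13 for TUBB2B and -0.15 to 0.086 for TUBB6. The neuron-enriched beta share moved between -5.46 and 3.47 points for TSA minus DMSO and between -9.14 and 3.61 for E6R minus DMSO, and the TUBA1A share between -1.57 and 4.08 for TSA minus DMSO. The cause was not tested.

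With 2 libraries per group, the spread between libraries and not the depth limited abundant members. TUBA1C (18 and 28 UMIs) and TUBB4A (7 and 19 UMIs) were also limited by the shallow DMSO libraries.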

Other observations

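DMSO and E6R libraries with the same number resembled each other in several members: TUBB2A, TUBB2B, TUBB3, TUBB4A and TUBB4B were higher in replicate 2 than in replicate 1 under both DMSO and E6R. Under TSA, TUBB2A, TUBB2B and TUBB3 were higher in replicate 1, at 171, 258 and 1593 CPM against 117, 204 and 1189 CPM. The catecholamine enzyme DBH, an adrenergic marker, stood at 194 and 724 CPM under DMSO, 162 and 158 under TSA and 224 and 1145 under E6R, and so was higher in replicate 2 of the same groups. The neuronal microtubule protein MAPT stood at 38.7 and 106 CPM, 75.7 and 86.0, and 35.1 and 105 CPM in the same order. These are values of single libraries, chosen after they were seen, and no test was made.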
